A study of Mus musculus with 6 samples.

Results

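The calcineurin pathway of skeletal muscle was examined through 10 genes, which encode subunits of the phosphatase calcineurin (Ppp3ca, Ppp3cb, Ppp3r1), its regulators (Rcan1, Rcan2), NFAT transcription factors that it dephosphorylates (Nfatc1, Nfatc3) and the calsarcins that bind it at the Z-disc (Myoz1, Myoz2, Myoz3). Members were the probe sets whose only gene symbol in the platform's annotation was one of these names. Each of the 10 genes had 1 such probe set, so the group held 10 of the 35557 probe sets on the array and 10 of the 19938 genes tested. The 6 Affymetrix MoGene arrays comprised 3 of muscle labelled transgenic (TG) and 3 of muscle labelled wild type (WT), and the series is titled for SOCS-3, a suppressor of cytokine signalling. The labels name a separate animal for each array. They give the tissue as mouse skeletal muscle, but the sources used here do not give the muscle taken, the strain, age and sex of the mice, what the transgene carries or the promoter that drives it.

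Calcineurin is a phosphatase made of a catalytic subunit and a calcium-binding regulatory subunit, and it is switched on by calcium and calmodulin. It removes phosphates from NFAT proteins, which then enter the nucleus. In skeletal muscle this pathway is known for its part in the slow, oxidative fibre programme, and calsarcins tether calcineurin to alpha-actinin at the Z-disc and restrain it. Rcan1 is both an inhibitor of calcineurin and a textbook target of NFAT, through a promoter inside the gene.

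Values are log2 expression as the authors deposited it, in which a step of 1 is a doubling, and differences are TG minus WT. The 10 markers of skeletal muscle listed, such as Ckm and Acta1, had a mean level of 14.00 to 14.03 on TG arrays and 14.02 to 14.04 on WT arrays. Median expression per array was between 5.98 and 6.04, and the number of arrays limits the precision of every comparison. Nothing says whether the probe sets lie in shared or isoform-specific parts of the genes, and levels of different members are not ranked against each other. Differences between members on an array, and means over lists, are only compared between arrays or groups. In whole muscle, fewer cells of a type and less RNA per cell cannot be told apart. Socs3, named in the series title, was at 7.12, 7.25 and 7.07 in TG and 7.43, 7.41 and 7.37 in WT, lower on every TG array than on any WT array, and since the content of the transgene is not given, these values do not check the labels.

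The members that varied most between arrays were Rcan1 and Myoz2, and the sequences before their transcription starts are shown because the motifs known for NFAT and for the muscle factors MEF2 and MyoD can be read in them. The sequences are the 250 bases before each start in RefSeq, build GRCm38.p6, on the gene's own strand, which is the minus strand in each case. RefSeq windows matched 6 of the 10 members, with 10 windows in all. Those of Rcan1 were compared at the upstream start, chr16:92466170-92466419, and at the start inside the gene, chr16:92400079-92400328. Capitals mark GGAAA, the core of an NFAT site, or TTTCC, its reverse complement.
Rcan1 upstream start: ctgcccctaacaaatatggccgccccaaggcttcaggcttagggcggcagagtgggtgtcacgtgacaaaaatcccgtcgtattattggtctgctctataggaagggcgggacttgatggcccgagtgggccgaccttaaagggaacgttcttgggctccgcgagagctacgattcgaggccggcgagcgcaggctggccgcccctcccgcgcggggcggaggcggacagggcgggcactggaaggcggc
Rcan1 internal start: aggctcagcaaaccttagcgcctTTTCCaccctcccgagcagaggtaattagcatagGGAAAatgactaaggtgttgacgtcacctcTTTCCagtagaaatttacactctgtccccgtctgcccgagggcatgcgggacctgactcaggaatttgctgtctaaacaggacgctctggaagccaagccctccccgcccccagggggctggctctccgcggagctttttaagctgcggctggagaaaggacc
The window of the internal start held 3 such cores, which begin 227, 193 and 163 bases before the start, and that of the upstream start held 0. Of all 32851 windows of 250 bases, 55.6% held at least 1 core and 6.39% held at least 3. Among the other members, the window of Ppp3cb also held 3 cores, 1 window of Rcan2 held 2, 1 window of Nfatc3 held 1, and the remaining windows of Rcan2, Nfatc3 and Ppp3r1 held 0. The window of Myoz2, at chr3:123034988-123035237, held 2 NFAT cores, and it is printed with these, CTANNNNTAG, a loose form of the MEF2 core, and CANNTG, the E-box bound by MyoD and its relatives, in capitals.
Myoz2: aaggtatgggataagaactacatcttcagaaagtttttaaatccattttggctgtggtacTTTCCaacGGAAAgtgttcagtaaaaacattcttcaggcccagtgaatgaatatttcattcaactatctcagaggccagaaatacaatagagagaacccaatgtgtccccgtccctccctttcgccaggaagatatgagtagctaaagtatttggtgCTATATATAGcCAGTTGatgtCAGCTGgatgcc
The NFAT cores begin 190 and 182 bases before the start, and at least 2 were present in 21.4% of all windows. The MEF2 core begins 33 bases before the start, and its middle letters also spell the TATATA of a TATA-like run. The E-boxes begin 22 and 12 bases before the start, and they do not overlap the MEF2 core. At least 1 CTANNNNTAG was present in 3.20% of all windows and at least 2 E-boxes in 31.8%. The share for CTANNNNTAG counts any middle letters, while the MEF2 core takes A or T there, as in the Myoz2 match. CTANNNNTAG and CANNTG read the same on either strand. No other window of a member held CTANNNNTAG. A window each of Nfatc3, Ppp3cb, Ppp3r1 and Rcan2, and that of the Rcan1 upstream start, held 1 E-box. The E-box of Rcan1 is not in capitals above. At least 1 E-box was present in 66.2% of all windows. A match describes letters and shows no binding, and which Rcan1 start gives the RNA that the probe set measures was not determined.

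No member passed the threshold of an adjusted p of 0.05 between TG and WT (limma, with Benjamini-Hochberg adjustment over all 19938 genes). The smallest adjusted p among them was 0.725, for Myoz2. The background is low, since 1 gene of all those tested, or 0.00502%, passed. At an unadjusted p under 0.05 there was 1 member, against 6.75% of all genes. It was lower in TG, where 4.79% of all genes were lower at that p, and no member was higher, where 1.96% of all genes were. The median difference over the 10 members was -0.0077, with 4 above and 6 below 0. Over all genes tested the median was -0.016, with 43.8% above and 56.2% below 0.

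**Figure D1:**
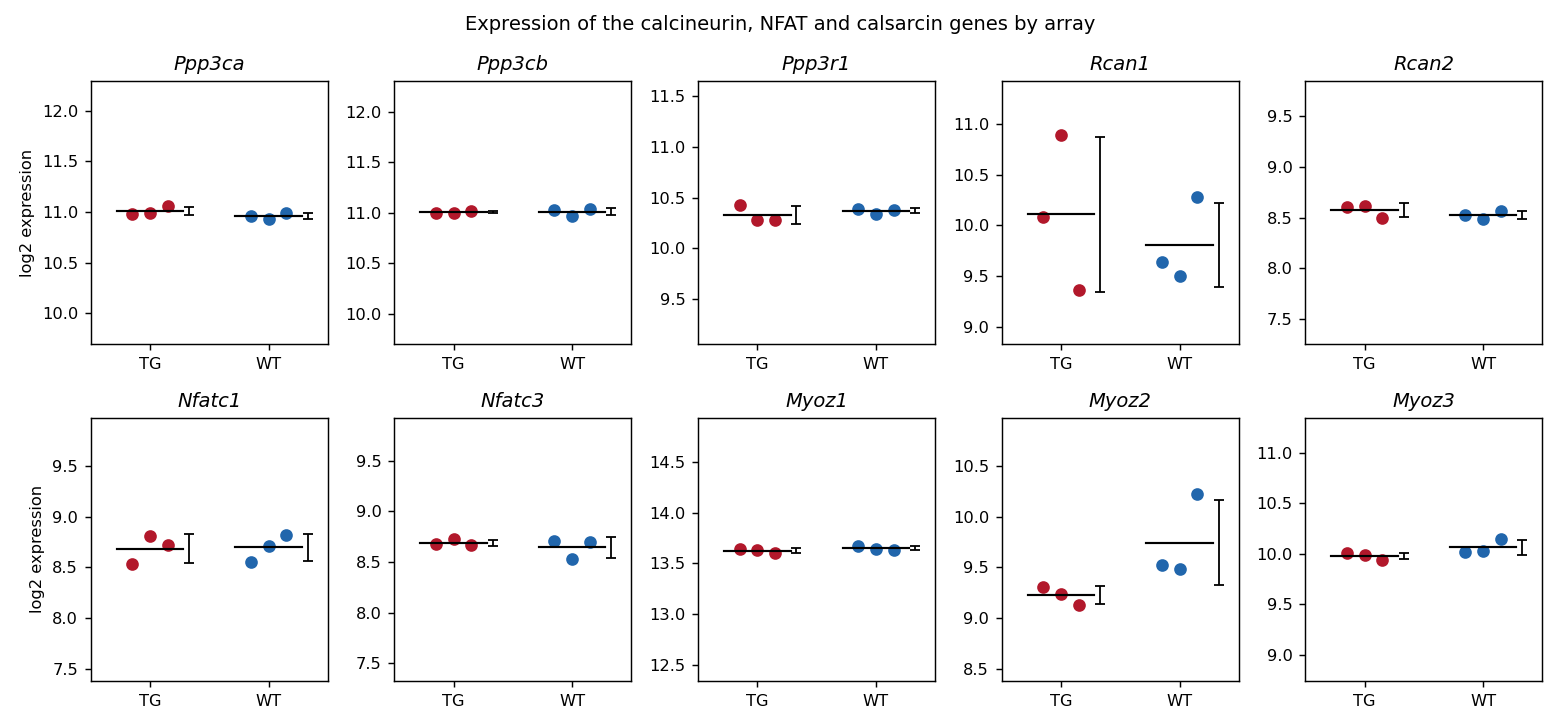
Log2 expression of each member (vertical axis, the same span of log2 units in every panel) on the 3 TG arrays (red) and 3 WT arrays (blue), left to right as arrays 1, 2 and 3 of each group. Horizontal lines are group means and bars beside them the SD. Rcan1 spreads over 1.53 log2 units, and Myoz2 is highest on WT array 3 at 10.23, while Myoz1 and Ppp3cb stay within 0.07.

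The catalytic subunits were level across the arrays. Ppp3ca, which encodes the alpha catalytic subunit, was at 10.99, 10.99 and 11.06 in TG and 10.96, 10.93 and 10.99 in WT. The groups overlapped, and the difference was 0.05 (SE 0.06, 95% interval -0.10 to 0.20; limma, adjusted p = 0.891). Ppp3cb, which encodes the beta catalytic subunit, was at 11.00, 11.00 and 11.02 in TG and 11.03, 10.97 and 11.03 in WT. The TG arrays lay within the range of the WT arrays, with a difference of -0.0045 (SE 0.06, 95% interval -0.15 to 0.14; limma, adjusted p = 0.992), whose sign turned with arrays set to a common median and without WT array 1 or 3. The SD within groups, pooled over TG and WT, was 0.036 for Ppp3ca and 0.027 for Ppp3cb, at the 4.21 and 1.82 percentiles of all genes tested. Those percentiles are over genes of every level. Ppp3r1, which encodes the calcium-binding regulatory subunit, was at 10.43, 10.28 and 10.28 in TG and 10.39, 10.34 and 10.38 in WT. TG array 1 was the highest of the 6 and the other TG arrays were the lowest, and the difference was -0.05 (SE 0.07, 95% interval -0.21 to 0.12; limma, adjusted p = 0.921), or -0.096 without TG array 1 and -0.019 without TG array 2.

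The regulators of calcineurin behaved unlike each other from array to array. Rcan1 was at 10.08, 10.89 and 9.36 in TG and 9.64, 9.50 and 10.28 in WT. The highest and the lowest of the 6 arrays, TG 2 and TG 3, were both transgenic and differed by 1.53, or 2.88-fold. The TG mean was 10.11 ± 0.76 and the WT mean 9.80 ± 0.42 (SD, n = 3 each), and they differed by 0.31 (SE 0.37, 95% interval -0.56 to 1.17; limma, adjusted p = 0.887). The groups thus differed by less than the spread between their arrays, and the difference was -0.08 without TG array 2 and 0.68 without TG array 3. The pooled SD of Rcan1 within groups, 0.61, was at the 99.8 percentile of all genes tested, whose median was 0.11. Rcan2, which encodes a related inhibitor, was at 8.61, 8.61 and 8.50 in TG and 8.53, 8.48 and 8.56 in WT. Its lowest TG array lay within the WT range, and the difference was 0.05 (SE 0.07, 95% interval -0.11 to 0.21; limma, adjusted p = 0.903).

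Markers of hepatocytes also differed between the arrays. The mean level of 9 measured hepatocyte markers was 6.96, 8.28 and 5.98 in TG and 7.28, 7.91 and 7.86 in WT. It was highest on TG array 2 and lowest on TG array 3, as Rcan1 was, while on WT array 2, where it was the next highest, Rcan1 was among the low arrays. The part of these transcripts in the Rcan1 values was not tested. The muscle gene Csrp3, which encodes the Z-disc protein MLP and was picked after its values were seen, was at 9.69, 10.64 and 9.51 in TG and 9.20, 9.13 and 10.67 in WT. It was high on TG array 2 and WT array 3, which were also the highest for Rcan1. Flnc, which encodes the actin crosslinker filamin C, was at 12.46, 12.81 and 12.15 in TG and 11.92, 12.31 and 12.51 in WT, with the same arrays highest.

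**Figure D2:**
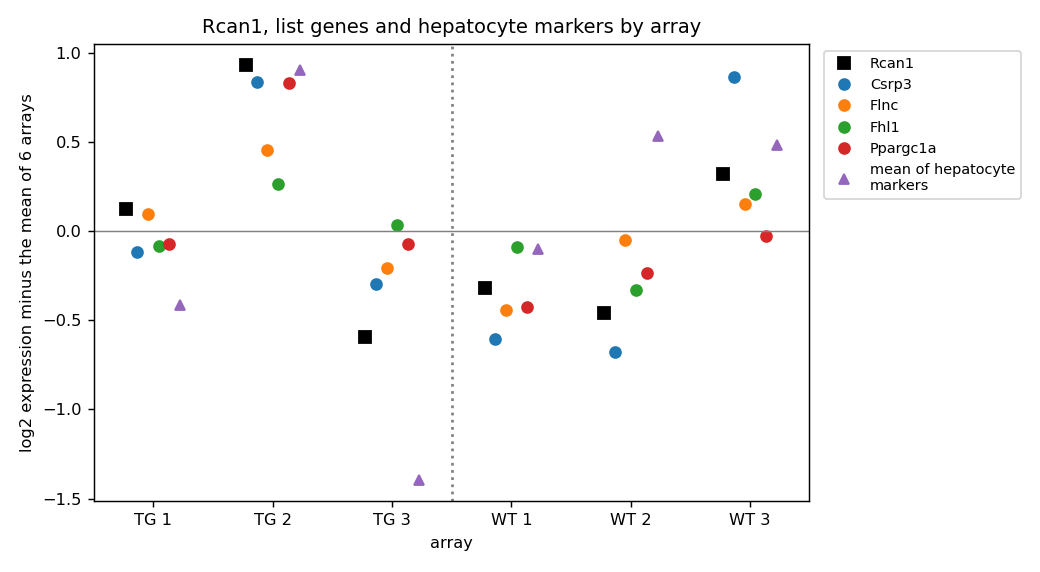
Log2 expression minus the mean over the 6 arrays (vertical axis) on each array (horizontal axis) for Rcan1 (black squares), Csrp3, Flnc, Fhl1 and Ppargc1a (circles) and the mean of 9 hepatocyte markers (triangles). All 6 are highest or next to highest on TG array 2, and the dotted line separates TG from WT arrays. The genes drawn do not stand for their lists. Of 18 Z-disc genes, 3 were highest on TG array 2 and 7 on WT array 3, and of 13 slow fibre genes, 3 and 5.

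By Pearson correlation over the 6 arrays, the genes outside the group most like Rcan1 were Daam1, a formin that organises actin (r = 0.994), the major urinary protein gene Mup21 (r = 0.991) and the odorant receptor gene Olfr1412 (r = 0.988). They were picked as the highest values of r among all genes tested, and 66 genes had an r over 0.95, so these values have no test. Daam1 was at 8.64, 8.97 and 8.30 in TG and 8.37, 8.38 and 8.73 in WT, which runs over a smaller range than Rcan1 in the same array order at the top. Mup21, whose family is best known as secreted from liver, was at 4.61, 5.26 and 4.25 in TG and 4.43, 4.25 and 4.80 in WT. Mup21 and Olfr1412 lay below the median expression of every array.

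The NFAT genes did not separate the groups. Nfatc1, whose product is an NFAT factor active in slow fibres and also the leading NFAT factor of osteoclasts, was at 8.53, 8.81 and 8.72 in TG and 8.56, 8.71 and 8.82 in WT. Both groups ran over nearly the same range, with a difference of -0.011 (SE 0.10, 95% interval -0.25 to 0.23; limma, adjusted p = 0.990). That sign turned with array weights, with arrays set to a common median, and without TG array 1 or WT array 3. Bone and osteoclast markers had a mean level of 6.23 on TG array 1, against 5.67 and 5.85 on the other TG arrays and 5.58 to 5.77 on WT arrays, and 9 of 14 measured markers were highest on TG array 1. Nfatc1 was at its lowest there. Nfatc3, an NFAT factor also present in muscle, was at 8.68, 8.72 and 8.66 in TG and 8.71, 8.53 and 8.70 in WT. WT array 2 was the low one, and the difference was 0.04 (SE 0.07, 95% interval -0.13 to 0.22; limma, adjusted p = 0.935), or -0.017 without that array.

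The calsarcins differed from each other in how they varied. Myoz1, which encodes calsarcin-2, the form of fast fibres, was at 13.64, 13.63 and 13.60 in TG and 13.67, 13.65 and 13.63 in WT. The groups overlapped within a total range of 0.07, and the difference was -0.02 (SE 0.06, 95% interval -0.16 to 0.12; limma, adjusted p = 0.958). Its pooled SD of 0.022 was at the 0.79 percentile of all genes tested, and no percentile was taken among genes of like level. Among other bright muscle genes, Tnnt3 had an SD of 0.027 in TG and 0.014 in WT, and Myl1 had 0.102 and 0.042. Myoz2, which encodes calsarcin-1, the form of slow fibres and heart, was at 9.30, 9.24 and 9.13 in TG and 9.52, 9.48 and 10.23 in WT. Every TG array lay below every WT array, and WT array 3 stood 0.70 above the next highest array. The TG mean was 9.22 ± 0.09 and the WT mean 9.74 ± 0.42 (SD, n = 3 each), and the difference was -0.52 (SE 0.19, 95% interval -0.96 to -0.08), or 0.698-fold, which did not pass (limma, unadjusted p = 0.0272, adjusted p = 0.725). Without WT array 3 the difference was -0.28 (SE 0.08; limma, adjusted p = 0.905, in a range of 0.643 to 0.912 over all alternatives). That adjusted p was higher although the SE was smaller, in a fit with fewer arrays for every gene. Myoz3, which encodes calsarcin-3, a form of fast fibres, was at 10.005, 9.985 and 9.944 in TG and 10.021, 10.025 and 10.146 in WT. Its TG arrays also lay below its WT arrays, by a smaller amount, at -0.09 (SE 0.07, 95% interval -0.24 to 0.07; limma, adjusted p = 0.823), and at -0.05 without WT array 3. Groups that do not overlap with lower values in TG were thus found for 2 of 10 members, against 7.76% of all genes, and groups with higher values in TG for 0 members, against 4.52% of all genes.

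Among the marker lists of other cell types, several had mean levels that did not overlap between TG and WT arrays. Satellite cell markers stood at 6.92 to 7.00 in TG and 7.02 to 7.14 in WT, neuron and Schwann cell markers at 5.12 to 5.18 and 5.21 to 5.29, and T and B lymphocyte markers at 4.57 to 4.73 and 4.74 to 4.83. In that order, 5 of 5, 5 of 6 and 5 of 8 genes were below 0, where 56.2% of all genes were. The satellite cell genes were looked at singly after their values were seen. Myod1 was at -0.48 (SE 0.17), while Cdh15, Pax7, Calcr and Myf5 were at -0.10, -0.09, -0.011 and -0.0078. None of them separated the groups by itself, and list means were not taken again with single genes left out. The gaps between list means were narrow, since lymphocyte markers reached 4.732 in TG and began at 4.737 in WT, while array medians spread over 0.057. Mean levels of the neuron and Schwann cell list and of the lymphocyte list lay below every array median, 5.98 to 6.04. Marker lists were not run under other normalizations. Adipocyte markers were on the other side, at 7.35 to 7.48 in TG and 7.15 to 7.25 in WT, with 6 of 7 genes above 0. Of these genes, also looked at after their values were seen, Adipoq had the largest difference, at 0.64 (SE 0.09). The others above 0 were at 0.09 to 0.26. Lpl was at -0.14 (SE 0.07) and lower on every TG array than on any WT array. Macrophage markers had 9 of 10 genes above 0 and overlapped, at 6.27 to 6.59 in TG and 6.14 to 6.34 in WT, as did fibroblast markers (9.49 to 9.77 and 9.52 to 9.57) and endothelial markers (8.59 to 8.67 and 8.65 to 8.77). No gene of these lists passed the threshold, and their part in the values of Myoz2 and Myoz3 was not tested.

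**Figure D3:**
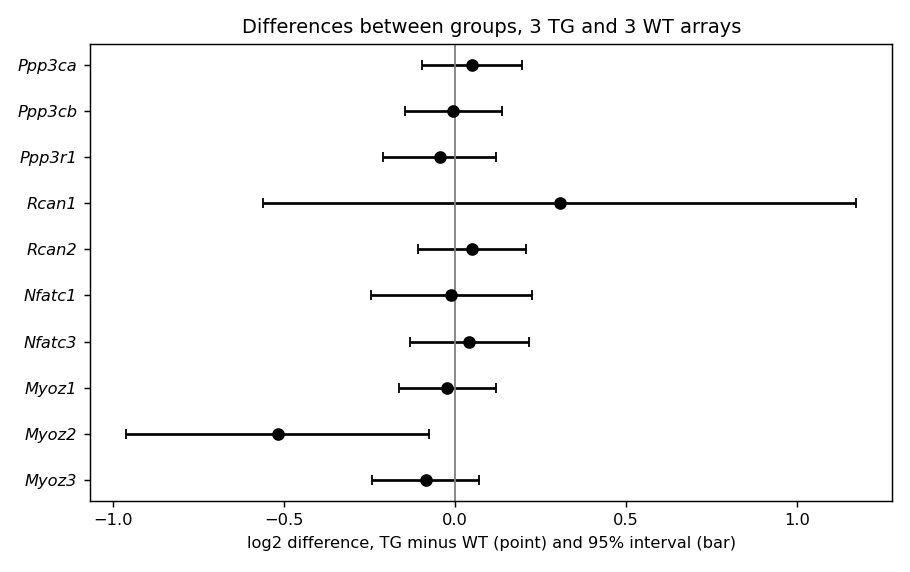
Log2 difference, TG minus WT (horizontal axis), of each member, with bars for the 95% interval from the limma fit over 3 arrays per group. The interval leaves out 0 for Myoz2 before any adjustment, is widest for Rcan1, and lies between -0.25 and 0.23 for the other 8 genes.

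Apart from Rcan1 and Myoz2, which were set aside after their values were seen, the 8 members had differences from -0.09 to 0.05, and their 95% intervals reached at most from 0.843-fold to 1.17-fold. These intervals are not adjusted for the number of genes. Of the 10 members, 7 had a pooled SD under the median of all genes tested, which were not matched to the members for level. WT array 3 held the highest value for 4 members (Nfatc1, Myoz2, Myoz3 and Ppp3cb), and the lowest values were on TG array 3 for 4 members and on WT array 2 for 4.

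Whether members of a family differed between the groups by unequal amounts was asked through 6 pairs, by taking the log2 difference between the members on each array and comparing it between TG and WT with a two-sided exact permutation test. With 3 arrays against 3 this exact permutation test cannot go below p = 0.10, so no pair could pass. For Myoz1 minus Myoz2 it was 4.34, 4.39 and 4.47 on the TG arrays and 4.15, 4.17 and 3.40 on the WT arrays, with no overlap and a shift of 0.50 between groups (exact p = 0.10, 0.20 adjusted over the 6 pairs). For Myoz2 minus Myoz3 it was -0.70, -0.75 and -0.81 in TG and -0.50, -0.55 and 0.08 in WT, with no overlap and a shift of -0.43 (exact p = 0.10, adjusted 0.20). This shift and that of Myoz1 minus Myoz2 use the same Myoz2 values, and Myoz2 by itself differed by -0.52. For Ppp3ca minus Ppp3cb the shift was 0.05, with -0.013, -0.011 and 0.037 in TG and -0.070, -0.038 and -0.042 in WT (exact p = 0.10, adjusted 0.20). Without WT array 3 the 2 shifts that involve Myoz2 were 0.24 and -0.23. For Myoz1 minus Myoz3 (0.06), Rcan1 minus Rcan2 (0.26) and Nfatc1 minus Nfatc3 (-0.05) the groups overlapped, with exact p-values of 0.30, 0.70 and 0.60. The Myoz1 and Myoz3 shift was 0.012 without WT array 3, and with quantile normalization it was 0.08 and the groups did not overlap (exact p = 0.10, adjusted 0.15). Without TG array 2 the Rcan1 and Rcan2 shift was -0.11.

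Genes of the slow fibre programme, which calcineurin and NFAT are known to favour, were read beside Myoz2. None of the 13 passed, 10 were below 0 and 3 above, and the median difference was -0.07, where 56.2% of all genes were below 0. Myh2, the myosin heavy chain of fast oxidative fibres, was at 11.85, 11.91 and 11.86 in TG and 12.01, 11.97 and 12.52 in WT. As for Myoz2, its TG values lay below its WT values without overlap and WT array 3 was highest, with a difference of -0.30 (SE 0.14; limma, adjusted p = 0.755). The Myh2 difference was -0.12 (SE 0.07) without WT array 3. Tnnt1, the slow troponin T gene, was at 6.90, 6.66 and 6.81 in TG and 6.91, 7.06 and 7.03 in WT, a difference of -0.21 (SE 0.08; limma, adjusted p = 0.738) that does not rest on WT array 3 alone, since WT array 2 was higher. Myh7b, a slow-type myosin gene, was at -0.20 (SE 0.09; limma, adjusted p = 0.739). The slow myosin gene Myh7, picked after its values were seen, was at 6.12, 6.42 and 6.24 in TG and 6.28, 6.40 and 6.19 in WT, with WT array 3 the lowest of the WT arrays. The slow troponin I gene Tnni1, picked likewise, was highest there, at 6.41 against 6.01 to 6.26 on the other arrays. Myh7 and Tnni1 lay near the array medians of 5.98 to 6.04. The myosin light chain genes Myl2 and Myl3 were also picked after their values were seen. Myl2 was at 6.54, 5.78 and 6.03 in TG and 7.11, 6.22 and 6.43 in WT, a difference of -0.47 (SE 0.26; limma, adjusted p = 0.791). The Myl2 difference was -0.21 (SE 0.22) without WT array 1. Myl3 was at -0.13 (SE 0.30), with its highest value, 10.46, on WT array 3. Ppargc1a, the gene of the coactivator PGC-1 alpha, was at 9.50, 10.41 and 9.50 in TG and 9.15, 9.34 and 9.55 in WT, a difference of 0.46 (SE 0.24; limma, adjusted p = 0.777) with its highest value on TG array 2, as for Rcan1, and 0.16 without that array.

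**Figure D4:**
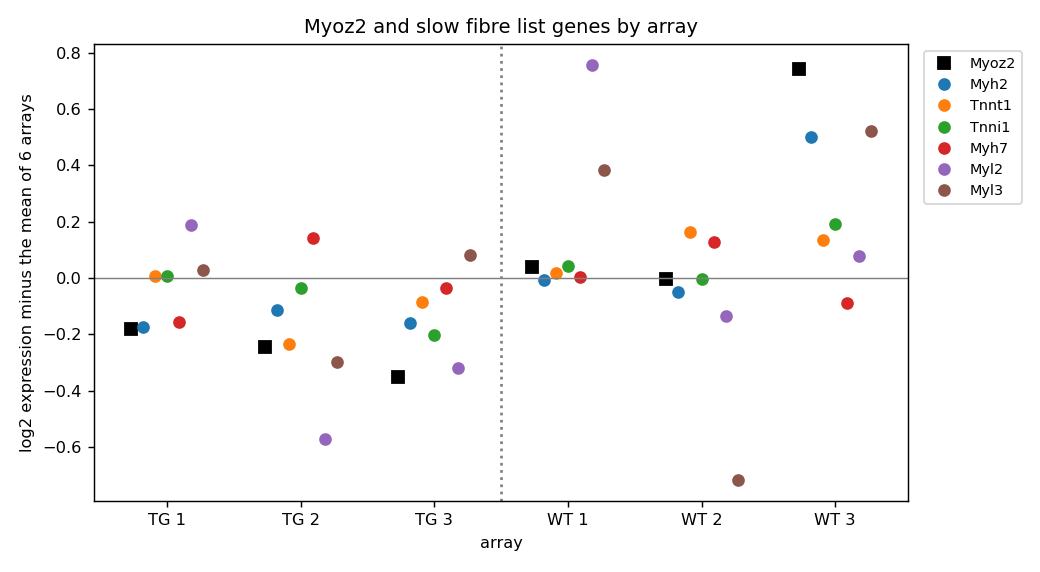
Log2 expression minus the mean over the 6 arrays (vertical axis) on each array (horizontal axis) for Myoz2 (black squares) and 6 genes of the slow fibre list (circles). Myoz2 and Myh2 are highest on WT array 3, at 10.23 and 12.52, as are Tnni1 and Myl3, whereas Myh7, Myl2 and Tnnt1 are not. The dotted line separates TG from WT arrays.

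The genes outside the group most like Myoz2 over the 6 arrays were the zinc finger gene Zfp384 (Pearson r = 0.996), the chromatin gene Rbbp4 (r = 0.994) and Il5ra, a receptor chain for interleukin-5 (r = 0.993). These too were picked as the highest of all genes tested, where 88 had an r over 0.95, and they have no test. Each was highest on WT array 3, at 8.73 against 8.44 to 8.55 for Zfp384, 9.82 against 9.67 to 9.72 for Rbbp4 and 3.59 against 3.23 to 3.37 for Il5ra. Il5ra lay below the median expression of every array.

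Fast fibres are the setting in which Myoz1 is known to act. Of 13 fast fibre genes none passed, 3 were above and 10 below 0, and the median was -0.015, which became 0.0039 with arrays set to a common median. Myh1 was at 13.83, 13.79 and 13.82 in TG and 13.73, 13.77 and 13.75 in WT, a difference of 0.06 (SE 0.06; limma, adjusted p = 0.867). The fast troponin genes Tnni2 and Tnnc2 were at -0.05 and -0.03, and Myh4, the fastest myosin heavy chain, at 0.03. Z-disc proteins near the calsarcins gave 7 of 18 genes above 0 and a median of -0.0057, which was 0.014 with a common median, 0.00066 when TG array 1 was left out and 0.011 when WT array 3 was, and none passed. Pdlim7, an alpha-actinin binding PDZ-LIM gene, was at 11.06, 10.99 and 10.96 in TG and 11.13, 11.08 and 11.19 in WT, a difference of -0.13 (SE 0.07; limma, adjusted p = 0.777). Flnc was at 0.23 (SE 0.20), the LIM protein gene Fhl1 at 0.14 (SE 0.15) and the titin cap gene Tcap at -0.08 (SE 0.09).

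The remaining subunits and regulators of calcineurin had 4 of 15 genes above 0, a median of -0.04 and no gene past the threshold. Ppp3cc, the third catalytic subunit gene, was at 8.96, 9.05 and 9.15 in TG and 9.07, 8.99 and 9.06 in WT, which overlap. Gsk3b, a kinase that opposes calcineurin on NFAT, was at 9.47, 9.44 and 9.40 in TG and 9.49, 9.53 and 9.58 in WT, lower on every TG array, with a difference of -0.10 (SE 0.06; limma, adjusted p = 0.802). The anchoring protein gene Akap5 was at -0.23 (SE 0.16), Chp2, a calcineurin-like calcium-binding protein gene, at -0.17 (SE 0.13), and the calcineurin inhibitor gene Cabin1 at -0.09 (SE 0.07). The third Rcan gene, Rcan3, was at -0.07 (SE 0.07).

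Other NFAT genes and their partners had 8 of 11 differences above 0, a median of 0.05, which was 0.013 when TG array 2 was left out and 0.017 when WT array 1 was, and none past the threshold. Nfatc2, Nfatc4 and the tonicity-responsive Nfat5 were at 0.03, 0.06 and 0.09, with standard errors of 0.07, 0.15 and 0.11. Homer1, a scaffold of the calcium release machinery, was at 9.97, 9.98 and 9.97 in TG and 9.76, 9.72 and 9.96 in WT, a difference of 0.16 (SE 0.08; limma, adjusted p = 0.770). Mef2a, a MEF2 factor that works with NFAT, was at 0.09 (SE 0.07), Nfatc2ip at 0.10 (SE 0.10) and the kinase gene Lrrk2 at -0.07 (SE 0.07).

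Upstream of calcineurin, genes of calcium entry, calcium release and the calmodulin kinases had 8 of 12 differences above 0 and a median of 0.04, which lay below 0 without TG array 3 (-0.0056) or WT array 1 (-0.0089). Trpc6, a cation channel gene that signals to calcineurin, was at 5.23, 5.10 and 5.20 in TG and 5.37, 5.49 and 5.48 in WT. It had the smallest p of the 82 pathway genes measured, with a difference of -0.27 (SE 0.07; limma, unadjusted p = 0.0063, adjusted p = 0.660), and it did not pass. Its levels lay below the median expression of every array, 5.98 to 6.04. Orai1, the store-operated calcium channel gene, was at -0.12 (SE 0.07), the kinase gene Camk2a at -0.09 (SE 0.07) and Cacna2d1, a subunit gene of the voltage-gated calcium channel, at 0.11 (SE 0.07). Over all 82 pathway genes, 2 had an unadjusted p under 0.05, which is 2.44% beside 6.75% of all genes. Groups that do not overlap were found for 10, 7 lower and 3 higher in TG, which is 12.2% beside 12.3% of all genes.

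**Figure D5:**
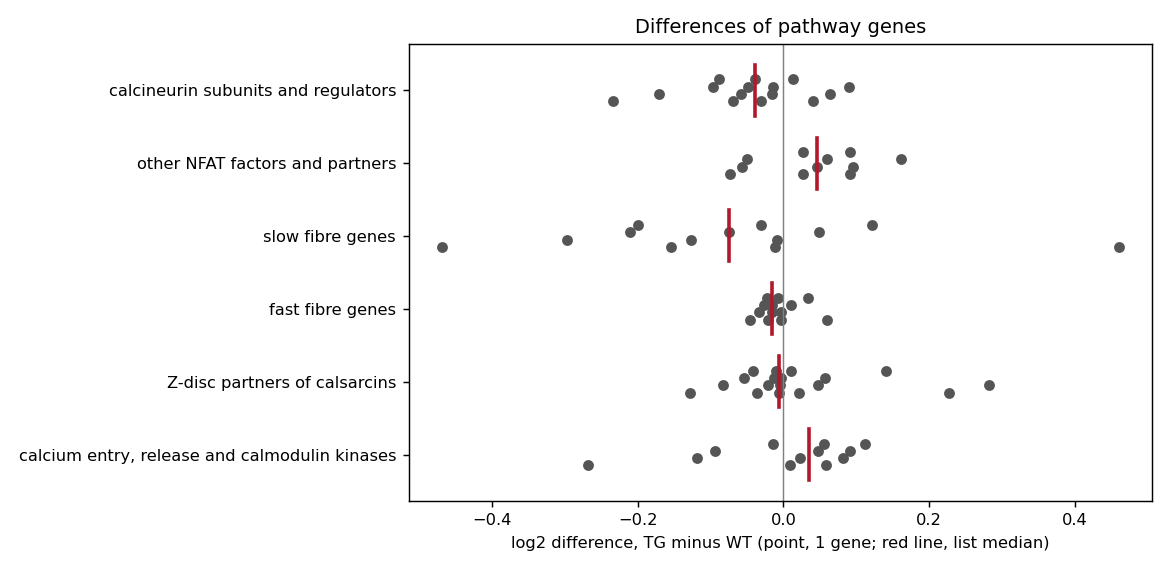
Log2 difference, TG minus WT (horizontal axis), of each measured gene (grey points) in the 6 pathway lists (rows, with points offset for visibility), with the list median in red. Medians lie between -0.07 and 0.05, and no gene shown passed the threshold.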

How the data were processed

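Total RNA from frozen muscle was labelled with biotin for Affymetrix MoGene arrays, per the labels' protocols and the series' design text. A table came with the series, in which the authors deposited log2 values of 35557 probe sets, with a column for every array. That these are log2 values follows from their span of 1.41 to 15.1. The sources used here do not give the summarization, background correction or normalization. Of the probe sets, 21789 had 1 gene symbol in the platform's annotation, and the brightest probe set stood for each of 19938 genes. Raw intensities were not used here, so no dim probe set was removed. Replicate numbers follow the deposit order and pair no animals.

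TG and WT were compared in limma 3.58.1 (lmFit, eBayes; R 4.3.3), two-sided, at an adjusted p of 0.05. A "±" is the SD over 3 arrays. The fit was also run on simulated data with independent normal noise for each gene. Such data hold no variation shared between genes on an array. Members and lists were chosen with earlier results of these data known, so counts over them are descriptions. Named genes were all members, the 4 genes of smallest p in each of 6 lists (86 genes, 82 measured), the 3 genes most like Rcan1 and Myoz2, further genes of the same families, and those said to be picked after their values were seen. Alternatives were a test of every probe set, probe sets averaged by gene, an intensity trend, robust moderation, array weights, genes above the median level, quantile normalization, a common median and each array left out. Figures were drawn with matplotlib 3.10.9.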

Additional observations from a re-analysis of the deposited data

How the results depend on the processing

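The count of members past the threshold was 0 under each of the 8 alternative settings and without each array in turn, while the count over all genes ranged from 0 to 7, against 1 as reported. Differences of Myoz2 were -0.54 to -0.49 over the 8 settings and -0.65 to -0.28 without each array. Signs turned for 4 members and 2 pairs. Nfatc1 was 0.0034 with array weights and 0.0085 with a common median, and Ppp3cb was 0.015 with a common median. Without each array in turn, Nfatc1 ranged from -0.082 to 0.066, Ppp3cb from -0.025 to 0.0072, Nfatc3 from -0.017 to 0.075 and Rcan1 from -0.084 to 0.68, and the pair shifts ranged from -0.16 to 0.018 for Nfatc1 and Nfatc3 and from -0.11 to 0.59 for Rcan1 and Rcan2. The cause was not tested, and each such fit had fewer arrays. No paired analysis was possible because the labels give no replicate numbers shared by TG and WT mice. With 3 arrays per group and no raw intensities, signal over background could not be assessed.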

Other observations

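Outside the lists, muscle stress genes looked at after their values were seen had their own spread over the arrays on which Rcan1 was high. Ankrd1, which encodes the titin-bound ankyrin repeat protein CARP, was at 10.53, 11.09 and 9.26 in TG and 8.66, 9.54 and 10.07 in WT. Xirp1, a gene of an actin-binding repair protein, was at 11.02, 11.66 and 10.11 in TG and 9.85, 10.41 and 10.99 in WT. Atf3, a stress-induced transcription factor gene, was at 9.29, 9.96 and 7.92 in TG and 7.87, 8.59 and 8.72 in WT. All 3 were highest on TG array 2, the highest array of Rcan1, and Ankrd2, a relative of Ankrd1, was at 12.17 there and at 12.27 on WT array 3, above its 11.44 to 11.69 on the other arrays. None passed between TG and WT, with limma adjusted p-values from 0.791 for Ankrd1 to 0.995 for Ankrd2.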
